A study of Mus musculus with 12 samples.

Results

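The genes described here serve protein folding in the endoplasmic reticulum (ER) and the unfolded protein response. They are 38 rows of a table of 55679 genes, chosen by name, and they fall into 10 chaperones and soluble folding factors, 6 lectins and disulfide isomerases, 3 collagen folding genes, 2 translocon genes, 4 sensor genes, 6 genes of the ATF4 arm and 7 genes of ER-associated degradation. RNA was sequenced from the whole lung and heart of 6 adult male mice of the 129S6/SvEvTac strain. Of these mice 3 were wild type (WT) and 3 were homozygous for an Adam19-tdTomato allele in which a tdTomato construct takes the place of exons 6 and 7 of Adam19 (KO). Each mouse gave 1 lung and 1 heart library, 12 in all. The deletion is carried by every cell of the KO mice, and no mouse was treated. WT and KO mice do not share the prefixes of their identifiers. The labels do not say what a prefix stands for, and the paper calls its WT animals littermates. If a prefix marks a litter or cage, its effect cannot be told apart from genotype. In that case WT replicates 1 and 2 would share a litter or cage, and so would KO replicates 2 and 3. The paper describes the allele as a reporter, made to show where this membrane-anchored metalloprotease is found. Its homozygotes proved viable and were used as knockouts to study lung function. RNA of both tissues was sequenced to check the loss of Adam19 transcript, and the paper also compared gene expression between genotypes in lung.

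Proteins that enter the secretory pathway fold in the ER lumen with the help of Hsp70 and Hsp90 chaperones, lectins that read N-linked sugars, and oxidoreductases that form disulfide bonds. When unfolded protein accumulates, the transmembrane sensors IRE1, PERK and ATF6 start the unfolded protein response. IRE1 cuts a short intron out of Xbp1 mRNA, PERK phosphorylates eIF2α and so favors translation of ATF4, and ATF6 is released to the nucleus as a transcription factor. The lung has cells with heavy secretory traffic, such as alveolar type 2 cells, airway secretory cells and plasma cells, while the heart is dominated by cardiomyocytes.

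Values are on the log2 scale of the deposited gene table, in which a value is the log2 of 1 plus a scaled estimated read count, so a difference of 1 is a doubling. A gene was called when limma gave a Benjamini-Hochberg adjusted p under 0.05 over all genes tested, provided that the groups were 1.5-fold apart or more and that 1 of their means reached 6. Libraries held between 17674788 and 35862932 estimated reads. Adam19 itself lay between 9.12 and 10.27 in the WT libraries and between 3.21 and 6.67 in the KO libraries of both tissues, with no library against its label. Heart libraries carried the cardiomyocyte gene Myh6 at 20.05 to 20.44 and lung libraries the alveolar type 2 gene Sftpc at 16.32 to 17.28, while lung libraries also held Myh6 at 12.46 to 14.24. Lung WT replicate 3 stood apart from the other WT lungs, with a median absolute difference over genes of 0.43 and 0.44 from them, against 0.19 to 0.36 between other libraries of a group.

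Sequence elements through which these genes are known to be induced were looked for in the RefSeq promoter windows of GRCm38.p6, from 250 bases before to 50 after the transcription start. Windows were found for 33 of the 38 genes, the exceptions being Hyou1, Manf, Fkbp10, Atf6 and Derl1. The ER stress response element (ERSE), bound by NF-Y at its first end and by ATF6 at its second, reads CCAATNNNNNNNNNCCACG, and both strands were searched. It was present in 9 of the 33 (27.3%), against 37 of 27025 genes in all (0.137%). These sites are shown because ER stress is known to act on chaperone genes through them. Each is written on the strand that reads the CCAAT box first, with that box and the CCACG box in capitals.

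Hspa5, chr2:34772025-34772043 (+): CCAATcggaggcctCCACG
Hsp90b1, chr10:86705533-86705551 (+): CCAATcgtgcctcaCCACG
Hsp90b1, chr10:86705638-86705656 (-): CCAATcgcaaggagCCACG
Dnajc3, chr14:118937827-118937845 (+): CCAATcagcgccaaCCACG
Creld2, chr15:88819520-88819538 (-): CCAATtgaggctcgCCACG
Calr, chr8:84847075-84847093 (+): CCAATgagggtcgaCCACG
Canx, chr11:50325800-50325818 (-): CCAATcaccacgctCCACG
Pdia6, chr12:17266491-17266509 (+): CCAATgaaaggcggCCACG
Syvn1, chr19:6046532-6046550 (+): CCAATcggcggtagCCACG
Derl3, chr10:75893242-75893260 (-): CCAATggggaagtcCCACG

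All of these sites lay upstream of the start, the nearest at 44 bases in Syvn1 and the farthest at 212 bases in Hsp90b1, the only gene of the 9 with a pair of sites in its window. A compact form, ERSE-II (ATTGG and CCACG separated by 1 base, both strands), was found in Dnajb11 and Herpud1, or 2 of 33 (6.06%) against 0.0444% of all genes. The composite element through which ATF4 and C/EBP proteins act was searched as TGATGNAA on both strands. It was found in 4 of 33 (12.1%) against 4.51% of all genes, and 3 of the 4 belong to the ATF4 arm. The matches are listed with those of ERSE-II, each on the strand that carries the motif, with all letters of the motif in capitals. None of the 33 windows held TGACGTGG, which is present in 0.714% of all genes. A match is a description of the letters, and binding was not measured.

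Dnajb11, ERSE-II, chr16:22857852-22857862 (+): ATTGGCCCACG
Herpud1, ERSE-II, chr8:94386377-94386387 (+): ATTGGGCCACG
Herpud1, composite element, chr8:94386317-94386324 (-): TGATGCAA
Asns, composite element, chr6:7693225-7693232 (-): TGATGAAA
Chac1, composite element, chr2:119351049-119351056 (-): TGATGCAA
Trib3, composite element, chr2:152344039-152344046 (+): TGATGTAA

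Levels of different genes were compared per transcript length, as TPM, in which estimated counts of protein-coding transcripts are divided by their lengths and scaled to the same sum in every library. Pdia6 was left out because the length of its main transcript was not found in the annotation used, which leaves 37 genes. In WT lung the highest were Hsp90b1, the ER form of Hsp90, at 629 ± 81.0 TPM (SD, n = 3), P4hb, the founding disulfide isomerase and a subunit of collagen prolyl 4-hydroxylase, at 587 ± 53.6, the calcium-binding lectins Calr at 463 ± 24.4 and Canx at 450 ± 53.7, and Xbp1 at 307 ± 11.1. The spreads of Hsp90b1 and P4hb overlapped, as did those of Calr and Canx. In WT heart the first place was taken by Hspa5, the Hsp70 chaperone BiP, at 368 ± 65.9 TPM, with Hsp90b1 at 359 ± 25.5 and Canx at 318 ± 21.1 within its spread. The low end was the same in both tissues: the pseudokinase gene Trib3 stood at 6.62 ± 0.526 TPM in WT lung and 2.37 ± 1.03 in WT heart, and the derlin Derl3, whose homologs form part of the retrotranslocation channel, at 1.81 ± 1.03 and 0.107 ± 0.185. Summed over the 37 genes, the level was 5118 to 5219 TPM in WT lungs, 4554 to 4937 in KO lungs, 2495 to 2924 in WT hearts and 2272 to 2588 in KO hearts. Every KO lung lay below every WT lung in this sum, while the hearts of the genotypes overlapped. The 20 most abundant genes took 20.1%, 23.1% and 21.3% of the TPM in WT lungs and 23.9%, 24.2% and 25.1% in KO lungs. Because TPM add up to the same total, a larger share there leaves less for all other genes. Its part in the lower sum of KO lungs was not tested, and no such sum was computed for other gene sets.

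**Figure D1:**
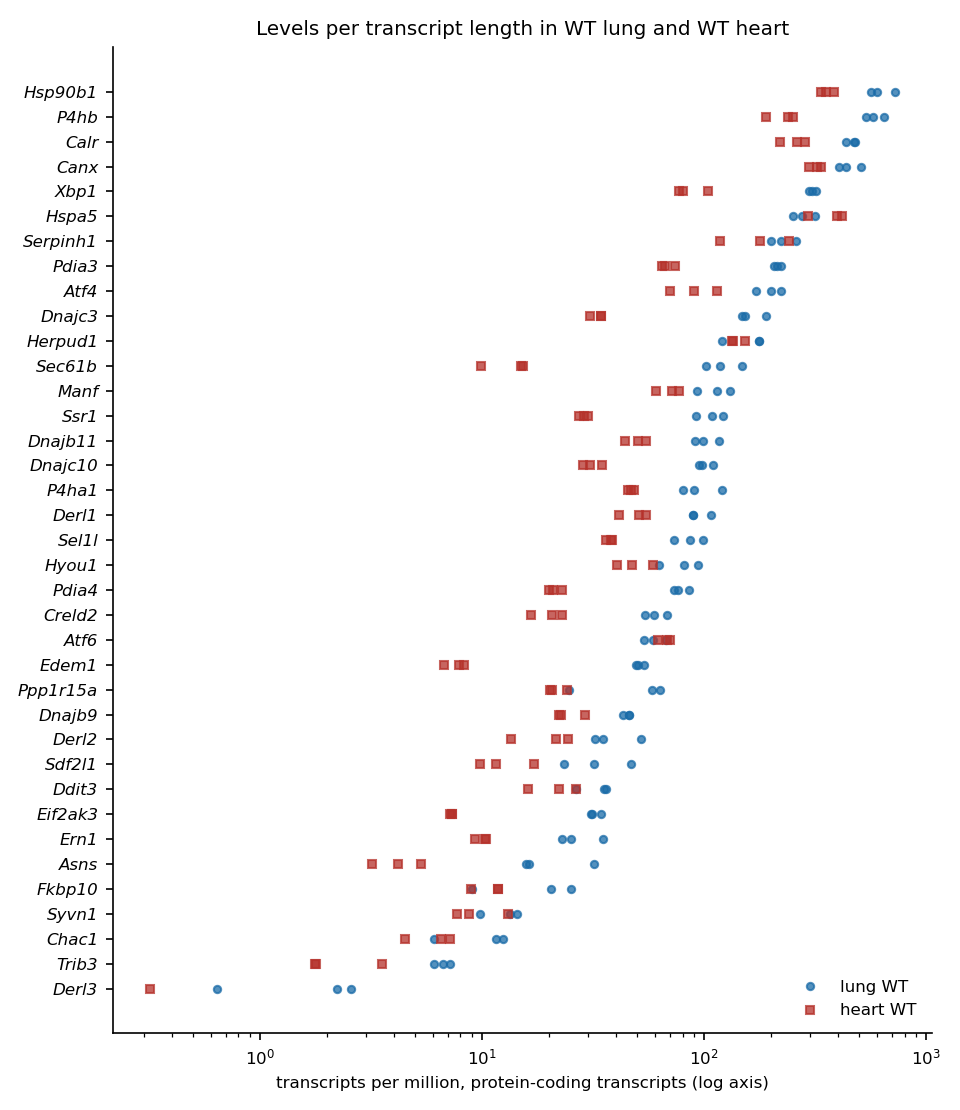
Levels of 37 genes in the 3 WT lung (circles) and 3 WT heart libraries (squares), in TPM on a log axis, ordered by the lung mean; libraries at 0 (Derl3 in heart) have no point. Hsp90b1 leads in lung at a mean of 629 and Hspa5 in heart at 368, and Derl3 is the lowest in both.

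The comparison of lung with heart asks which parts of the ER folding system the tissues use unequally. Both are whole organs, in which fewer cells of a type cannot be told apart from less RNA per cell. In WT mice 14 of the 38 genes were called: 11 were higher in lung, where 29.3% of all 17666 genes tested were called higher, and 3 were lower, where 20.1% were called lower. In KO mice 18 were called, 14 higher in lung beside 28.7% of all genes and 4 lower beside 20.9%. In WT the share called higher was near that background, and the median difference of the 38 (0.32) was that of all genes (0.32). The WT and KO comparisons share no mouse, and 12 genes were called in both, 10 higher and 2 lower in lung, and all 12 had the same sign. The share of all genes called in both was not computed, so this agreement is not shown to be particular to the 38. Across the 38 genes the WT and KO differences had a Pearson r of 0.84 and a Spearman rho of 0.79, which describes genes and not replicates.

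The BiP gene Hspa5 was the only one of the 10 chaperones called lower in lung. Its values were 13.01, 12.88 and 13.42 in WT lungs and 14.47, 14.04 and 14.62 in WT hearts. In KO mice they were 12.82, 12.55 and 12.49 in lungs and 13.91, 13.75 and 14.27 in hearts. All 6 lungs lay below all 6 hearts, with differences of −1.28 ± 0.20 (SE, adjusted p = 1.11e-04) in WT and −1.35 ± 0.20 (adjusted p = 6.87e-05) in KO by limma. Its co-chaperone Dnajc3, which delivers unfolded clients to BiP, differed in the opposite direction. It was at 12.17, 12.18 and 12.67 in WT lungs against 10.93, 10.87 and 10.95 in WT hearts, and at 11.98, 12.06 and 12.21 in KO lungs against 10.47, 10.63 and 10.70 in KO hearts. The difference was 1.42 ± 0.15 in WT and 1.48 ± 0.15 in KO, and no lung overlapped with a heart. Dnajc10, a disulfide reductase that acts with BiP, was higher in lung by 0.87 in WT and 0.71 in KO, and Creld2, a secreted factor of the unfolded protein response, by 0.72 in WT, where it was called, and 0.45 in KO, where it was not. Other BiP partners gave small differences in WT: Hsp90b1 −0.03, the nucleotide exchange factor Hyou1 −0.16, the J-domain proteins Dnajb9 −0.01 and Dnajb11 0.17, Sdf2l1, a component of the Dnajb11 complex, 0.51, and the stress-induced secreted protein Manf −0.21. None of these passed the test in WT, and of them Manf alone was called in KO, at 0.72.

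Of the lectins and disulfide isomerases, Pdia4 was called in both genotypes. It lay at 11.26, 11.27 and 11.60 in WT lungs against 10.43, 10.34 and 10.30 in WT hearts, and at 11.14, 10.999 and 11.16 in KO lungs against 10.11, 10.01 and 10.14 in KO hearts. The groups did not overlap, and the difference was 1.02 ± 0.12 in WT and 1.01 ± 0.12 in KO. P4hb was at 13.47, 13.29 and 13.35 in WT lungs and 12.99, 12.68 and 12.93 in WT hearts, and at 13.25, 13.14 and 13.14 in KO lungs and 13.07, 12.80 and 13.08 in KO hearts. Its difference of 0.50 in WT had an adjusted p of 0.00519 but stayed under the fold threshold. Pdia3, the partner of the lectins, differed by 0.50 in WT and was called at 1.04 in KO, while Calr (0.14), Canx (−0.38) and Pdia6 (0.41) were not called in WT.

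No collagen folding gene was called in WT. Serpinh1, which encodes the collagen chaperone HSP47, was at 12.06, 11.81 and 11.84 in WT lungs and 12.41, 11.91 and 12.84 in WT hearts, and at 11.75, 11.35 and 11.50 in KO lungs and 12.18, 11.89 and 12.17 in KO hearts. WT groups overlapped and KO groups did not, with differences of −0.48 and −0.55 that were not called. Fkbp10, a prolyl isomerase for procollagen, was called lower in KO lung than in KO heart at −0.75 ± 0.25 and not in WT at −0.36 ± 0.25. P4ha1, the catalytic subunit of prolyl 4-hydroxylase, differed by 0.15 in WT and −0.25 in KO.

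The widest called difference in WT was that of Sec61b, a subunit of the channel through which nascent chains enter the ER. WT lungs were at 9.76, 9.53 and 10.23 and WT hearts at 7.70, 7.18 and 7.69. KO lungs were at 9.51, 9.62 and 9.03 and KO hearts at 8.13, 7.61 and 8.17. Lungs and hearts were far apart in both genotypes, by 2.32 ± 0.24 in WT and 1.42 ± 0.24 in KO. A processed pseudogene resembles Sec61b (97.7% identity over 303 nucleotides), but its value was at most 0.85 in any library. The translocon-associated Ssr1 was at 11.60, 11.69 and 12.28 in WT lungs and 10.92, 10.81 and 10.89 in WT hearts, and at 11.56, 11.66 and 12.38 in KO lungs and 10.86, 10.91 and 10.74 in KO hearts. Its differences were 0.98 ± 0.22 and 1.03 ± 0.22.

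All 4 sensor genes were called in WT, 3 higher in lung and 1 lower. Eif2ak3, which encodes PERK, was at 9.87, 9.69 and 9.88 in WT lungs and 8.49, 8.62 and 8.53 in WT hearts, and at 9.76, 9.71 and 9.40 in KO lungs and 8.65, 8.49 and 8.73 in KO hearts, a difference of 1.27 ± 0.14 in WT and 1.003 ± 0.14 in KO. Ern1, which encodes IRE1, and its target Xbp1 were also higher in lung, by 0.63 and 0.97 in WT and by 0.76 and 0.85 in KO. Atf6 was the reverse. It was at 11.24, 11.56 and 11.52 in WT lungs and 12.47, 12.60 and 12.34 in WT hearts, and at 11.52, 11.49 and 11.67 in KO lungs and 11.95, 12.25 and 12.20 in KO hearts. Every lung was below every heart, by −1.03 ± 0.13 in WT, where it was called, and by −0.58 ± 0.13 in KO, where the adjusted p was 0.00213 and the fold of 1.49 was just under the threshold.

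Of the ATF4 arm, the asparagine synthetase gene Asns was called in both genotypes. WT lungs were at 8.81, 8.83 and 9.69 and WT hearts at 8.11, 7.87 and 7.58, and KO lungs at 8.998, 9.33 and 8.83 against KO hearts at 8.74, 7.76 and 8.55. The difference was 1.25 ± 0.29 in WT (adjusted p = 0.00193) and 0.70 ± 0.29 in KO (adjusted p = 0.0465). The KO call was not kept in a paired fit with the mouse as a replicate block, where the adjusted p was 0.0898. Trib3 was at 6.38, 6.46 and 6.38 in WT lungs and 6.49, 5.48 and 5.74 in WT hearts, and at 6.49, 7.15 and 6.41 in KO lungs and 6.48, 5.76 and 6.39 in KO hearts. Its tissues overlapped in WT and the difference of 0.50 was not called. Atf4 (0.36), the proapoptotic factor gene Ddit3, which encodes CHOP (−0.22), the glutathione-degrading Chac1 (−0.20) and the phosphatase subunit gene Ppp1r15a (0.15) were not called in WT, whereas in KO Ppp1r15a was called higher in lung at 0.89 and Ddit3 lower at −0.59.

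Of the degradation genes, Edem1, a lectin-like factor that routes misfolded glycoproteins to the ubiquitin ligase, was 3.08-fold higher in WT lung and 4.17-fold higher in KO lung. It was at 10.61, 10.83 and 11.17 in WT lungs and 8.78, 9.65 and 9.31 in WT hearts, and at 10.81, 10.92 and 11.001 in KO lungs and 9.04, 8.81 and 8.71 in KO hearts. Derl3 was at 3.99, 4.35 and 4.001 in WT lungs and 4.54, 4.13 and 4.28 in KO lungs. Its heart libraries were at 2.27, 0.00 and 4.35 in WT and 1.20, 0.79 and 1.93 in KO. These are a few reads, Derl3 is the only one of the 38 that the authors did not mark as detected, and its differences did not meet the threshold on the group mean. Herpud1, which recruits the ligase complex, was called lower in lung at −0.85 in WT and −0.61 in KO. Syvn1, the ligase itself (−0.34), its scaffold Sel1l (0.39), Derl1 (0.10) and Derl2 (0.28) were not called in WT, and Sel1l was called in KO at 0.72.

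**Figure D2:**
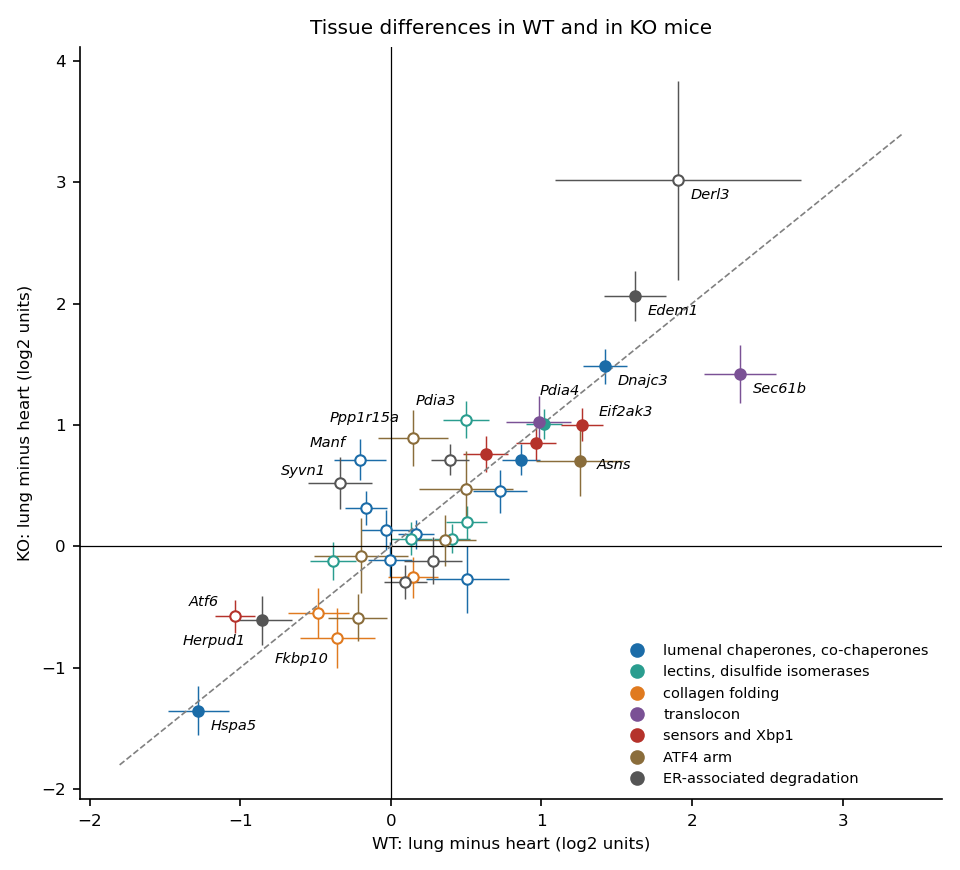
Lung minus heart in WT mice (x axis) against KO mice (y axis), in log2 units, for the 38 genes; whiskers are the SE of the limma fit, filled points were called in both genotypes, and the dashed line marks equal differences. Sec61b lies farthest right at 2.32, Derl3 highest at 3.01 with wide errors, and Hspa5 lowest at −1.28 and −1.35.

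The directions between tissues rest on the scaling of the libraries. With each library centered on its median gene, the median difference over all genes in WT moved from 0.32 to 0.07, the calls over all genes from 5179 higher and 3547 lower to 4284 and 4388, and the calls among the 38 from 11 and 3 to 9 and 6. In KO it moved from 0.29 to 0.10, with 5076 and 3685 calls over all genes becoming 4429 and 4256, and 14 and 4 among the 38 becoming 9 and 6. Each gene called in WT or KO kept its sign under this setting. On the TPM scale 34 of the 36 genes with at least 1 TPM in both WT tissues were higher in lung, but so were 77.6% of all 11587 such genes, with a median log2 ratio of 0.93. The 20 most abundant genes took 31.7% to 44.0% of the TPM in hearts and 20.1% to 25.1% in lungs. On that scale the median ratio of the 36 was 1.08 in WT, Hspa5 and Atf6 were lower in WT lung, and Herpud1 turned to higher, at 158 against 141 TPM. In KO 35 of 36 genes were higher in lung, with a median ratio of 1.07, beside 76.5% of 11749 genes with a median of 0.90. Of the 4 genes called lower in KO lung, Hspa5 alone was lower in TPM, at 225 against 264, and the others turned to higher: Fkbp10 at 24.3 against 23.4, Ddit3 at 31.2 against 24.8 and Herpud1 at 187 against 175.

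Some tissue calls were near the thresholds. Centering ended those of Creld2 (0.47) and Ern1 (0.38) in WT and of Asns (0.52), Dnajc10 (0.53), Ern1 (0.58), Manf (0.53) and Sel1l (0.53) in KO, and summed transcripts ended those of Ern1 in WT (0.47) and of Ddit3 (−0.57) and Ppp1r15a (0.27) in KO. In WT, Ern1 was not called without lung WT replicate 2 (0.49) or heart WT replicate 1 (0.56). In KO, Ddit3 was not called without lung KO replicate 1 (−0.47) or heart KO replicate 1 (−0.57) or 3 (−0.50), nor with a pseudocount of 10 (−0.56). Fkbp10 was not called without lung KO replicate 3 (−0.70) or heart KO replicate 1 (−0.69) or 2 (−0.71), Herpud1 without lung KO replicate 1 (−0.52) or heart KO replicate 2 (−0.55), and Manf without lung KO replicate 3 (0.57) or heart KO replicate 2 (0.58). Asns lost its KO call without lung KO replicate 1 (0.73) or 2 (0.57), without heart KO replicate 2 (0.41) or 3 (0.80), without heart WT replicate 1 or 2 (0.70 each, through the shared spread), with no filter and with no variance trend.

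In the lung the genotypes were compared to ask whether loss of Adam19 goes with a change in the folding system. For KO against WT lung the paper reports a gene set enrichment analysis. The sets for the unfolded protein response and for protein secretion are among those it lists as enriched. That analysis was not repeated here, and calls of single genes do not answer the same question. None of the 38 genes was called by limma, which called 11 of 16551 genes (0.0665%), Adam19 among them. None of the 38 was called by limma-voom. At an unadjusted p under 0.05, 6 were lower in KO lung, beside 2.77% of all genes, and 1 was higher, beside 3.15%. The 6 were the chaperone and co-factor genes Hspa5, Sdf2l1, Creld2 and Pdia6, the collagen chaperone gene Serpinh1, and Xbp1, and the 1 was Syvn1. All 3 KO lungs lay below all 3 WT lungs for 9 genes, against 6.4% of all genes, and above them for 1, against 6.41%. Of the 38, 23 had a lower mean in KO, with a median difference of −0.13 beside 0.01 for all genes. The lowest adjusted p was 0.806. The count of 6 fell to 1 without KO replicate 2 and to 3 without KO replicate 3, and was 5 without any other lung.

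Creld2 was at 8.84, 8.95 and 9.30 in WT lungs and 8.54, 8.53 and 8.28 in KO lungs. The groups did not overlap, and the difference was −0.58 ± 0.18 (SE, limma, adjusted p = 0.806). Pdia6, a disulfide isomerase that also binds IRE1, was at 11.69, 11.65 and 11.79 in WT lungs and 11.27, 11.16 and 11.36 in KO lungs, a difference of −0.45 ± 0.14 (limma, adjusted p = 0.806) with no overlap. Sdf2l1 was at 8.29, 7.72 and 7.44 in WT lungs and 7.45, 7.02 and 6.70 in KO lungs. Here the lowest WT lung fell just below the highest KO lung, and the difference of −0.76 ± 0.28 dropped to −0.52 without WT replicate 1.

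Hspa5 differed by −0.48 ± 0.18, Xbp1 by −0.37 ± 0.14 and Serpinh1 by −0.37 ± 0.16, each without overlap of the 3 KO and 3 WT lungs. Dnajb9 (−0.29), Pdia4 (−0.28), P4hb (−0.19) and P4ha1 (−0.42) also had all KO lungs below all WT lungs at an unadjusted p over 0.05. Syvn1 was at 7.995, 8.35 and 7.98 in WT lungs and 8.4995, 8.56 and 8.57 in KO lungs, so the KO lungs were the higher ones and close together (0.43 ± 0.17). By role, 8 of the 10 chaperones and 5 of the 6 lectins and disulfide isomerases had lower means in KO, with medians of −0.25 and −0.18. Beside them, 48.4% of all genes tested had lower means in KO lung. Of 34 other chaperones and disulfide isomerases tested, 18 were lower, with a median of −0.04. The ATF4 arm was divided, 3 lower and 3 higher with a median of 0.11, and 5 of the 7 degradation genes were higher, with a median of 0.10. Over 15 processing settings 1 to 3 genes of the ATF4 arm were lower, with medians from −0.08 (without KO replicate 2) to 0.29 (without KO replicate 3). Of the 9 genes with an ERSE in the promoter window, 7 had lower means in KO lung, with a median of −0.24 beside 14 of the 24 other genes with a window and a median of −0.10. Dnajc3, Hsp90b1, Calr and Canx among the 9 had values of −0.26, −0.24, −0.17 and −0.02. All of the 9 but Syvn1 and Derl3 are among the chaperones, lectins and disulfide isomerases counted above. The 5 genes without a window had a median of 0.02. Over the settings 6 or 7 of the 9 were lower, with medians from −0.34 (without WT replicate 1) to −0.08 (without WT replicate 3). Across 15 processing settings the number of lower chaperones was 8 or 9 of 10, and the median of the 38 lay between −0.17 and −0.08, the latter without lung WT replicate 3.

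Summed markers of some cell types also separated the genotypes in these lungs, although no marker was called and none was at 0 in every lung of a group. The sums overlapped for macrophages, neutrophils, endothelial cells, fibroblasts, red blood cells and adipocytes. They also overlapped for immediate early and cytosolic heat shock genes. Of 7 alveolar type 2 markers 5 were lower in KO, and their summed level was 18.29 to 18.47 in WT and 17.91 to 18.18 in KO lungs. All 7 airway secretory markers were higher in KO, with summed levels of 17.61 to 18.33 and 18.36 to 18.63, and so were 10 of the 11 plasma and B cell markers tested, with 13.22 to 13.38 and 13.43 to 13.67. Of 8 cardiomyocyte markers 7 were lower in KO lungs, with 14.728 to 15.31 in WT and 14.19 to 14.725 in KO, so these sums all but met. The 7S RNA gene Rn7s1 took 2.10% to 34.0% of the summed abundance in WT and 3.22% to 20.3% in KO lungs. The part of these in the values of the 38 genes was not tested.

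**Figure D3:**
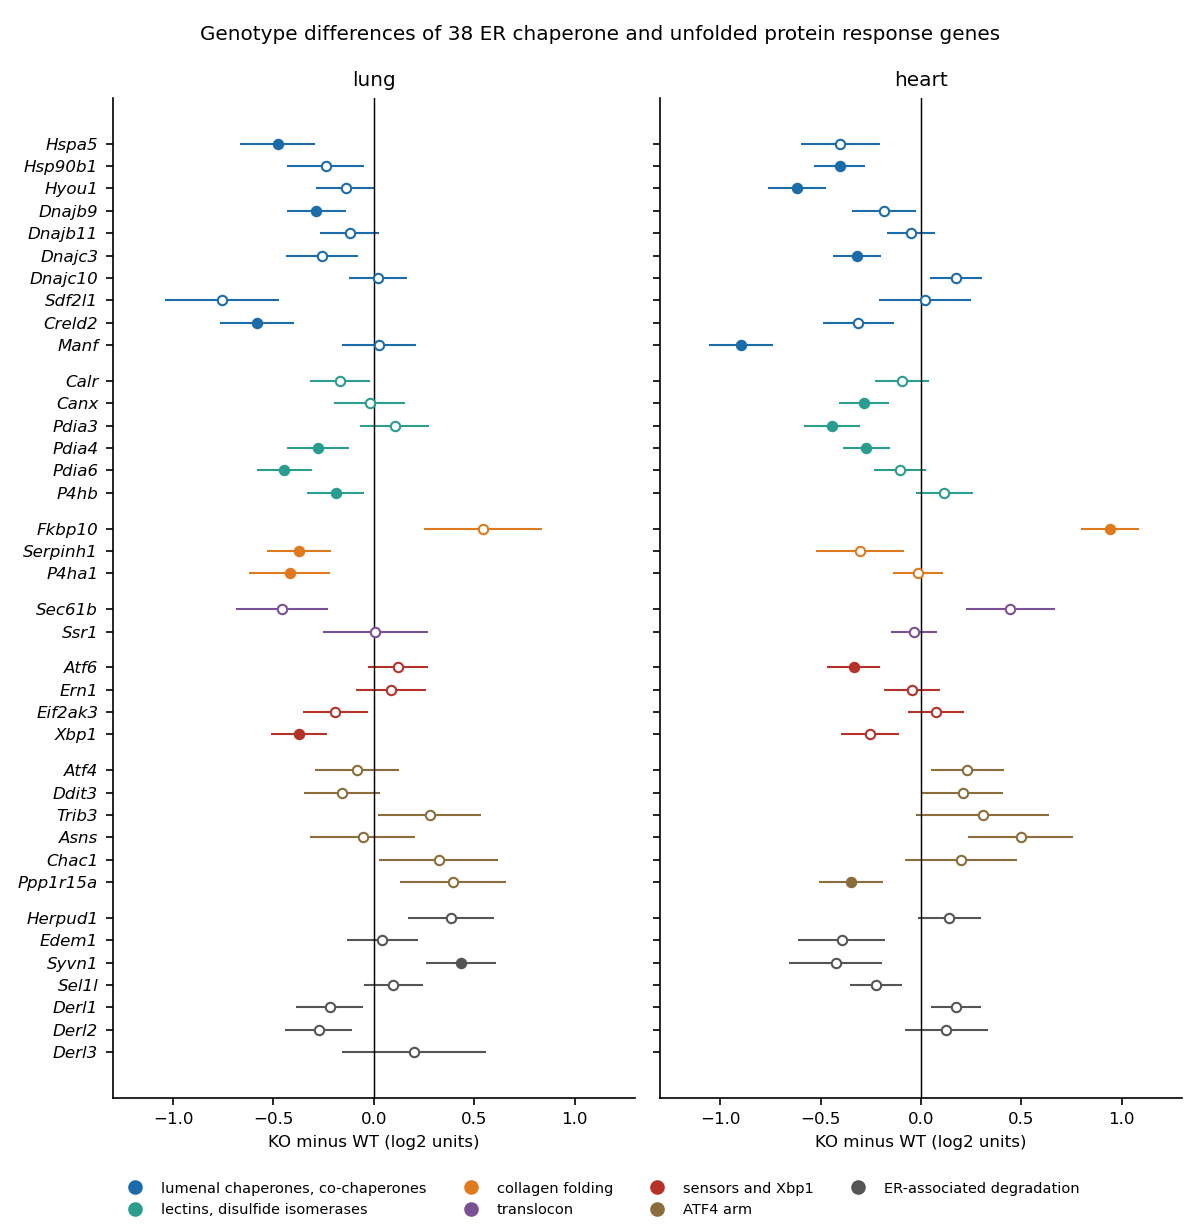
KO minus WT in lung (left) and heart (right) for the 38 genes, in log2 units, with the SE of the limma fit as whiskers; filled points have no overlap between the 3 KO and 3 WT libraries, and Derl3 was not tested in heart. In both tissues 8 of the 10 chaperones lie left of 0, Manf in heart at −0.90 and Sdf2l1 in lung at −0.76 being the farthest, while Fkbp10 in heart lies at 0.94.

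In the heart 37 of the 38 genes were tested, and none was called by limma, which called 13 of 15303 genes (0.085%). None was called by limma-voom. At an unadjusted p under 0.05, 7 were lower in KO heart, beside 2.69% of all genes, and 1 was higher, beside 4.76%. The 7 were Manf, Hyou1, Pdia3, Hsp90b1, Dnajc3, Pdia4 and Atf6, and the 1 was Fkbp10. All KO hearts lay below all WT hearts for 9 genes, against 5.23% of all genes, and above them for 1, against 7.82%. Of the 37, 23 had a lower mean in KO, with a median of −0.09 beside 0.03 for all genes. With each library centered on its median gene, 10 were lower and 1 higher at an unadjusted p under 0.05, and over all genes the split moved from 412 lower and 729 higher to 589 and 560. No gene was under 0.05 unadjusted in both tissues, and Pdia4 was the only one with all KO below all WT libraries in both.

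Manf, on chromosome 9 of GRCm39 (chr9:106715511-106769727), was at 9.93, 9.82 and 10.04 in WT hearts and 9.04, 8.77 and 9.29 in KO hearts. All KO hearts lay below all WT hearts, with a difference of −0.90 ± 0.16 (limma, adjusted p = 0.194, and 0.0815 to 0.647 over the alternatives). In the lungs of the same mice Manf was at 9.51, 9.85 and 9.81 in WT and 9.68, 9.54 and 10.03 in KO, with overlap and a difference of 0.02. Hyou1 was at 11.17, 11.02 and 11.49 in WT hearts and 10.56, 10.56 and 10.70 in KO hearts, a difference of −0.62 ± 0.15 (limma, adjusted p = 0.385) without overlap. Pdia3 (−0.44 ± 0.14), Hsp90b1 (−0.41 ± 0.13), Atf6 (−0.34 ± 0.13), Dnajc3 (−0.32 ± 0.12) and Pdia4 (−0.27 ± 0.12) followed, all without overlap, and so did Canx (−0.28) and Ppp1r15a (−0.35) at unadjusted p of 0.0504 and 0.0573.

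Fkbp10, on chromosome 11 of GRCm39 (chr11:100305808-100315669), had the opposite direction. It was at 8.45, 8.54 and 8.51 in WT hearts and 9.57, 9.53 and 9.23 in KO hearts, a difference of 0.94 ± 0.14 (limma, adjusted p = 0.0997). It was called only when the gene value was taken as the sum of its transcripts, at 1.05 with an adjusted p of 0.0431, and over the other settings the adjusted p ranged from 0.0989 to 0.520. In the lung it was at 8.66, 8.33 and 7.45 in WT and 8.87, 8.62 and 8.58 in KO, a difference of 0.54 that fell to 0.19 without WT replicate 3. Of 16 other collagen maturation genes tested in the heart none was called, and P3h3 and P3h4, which are known to act together in a complex for collagen lysine hydroxylation, were the ones under an unadjusted p of 0.05. P3h4 was at 9.22, 9.02 and 9.32 in WT hearts and 9.87, 9.59 and 9.84 in KO hearts (0.58 ± 0.14, limma, adjusted p = 0.430). P3h3 was at 8.47, 8.15 and 8.30 in WT hearts and 8.97, 8.82 and 8.69 in KO hearts (0.52 ± 0.15, limma, adjusted p = 0.531). These 2 genes are named after their values were seen. P3h4 lies head to head with Fkbp10 on the other strand of chromosome 11, and the annotated genes share 221 bases. Summed fibroblast and collagen markers stood at 15.14 to 15.49 in WT and 15.47 to 15.56 in KO hearts, and their part in these values was not tested.

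By role, 8 of the 10 chaperones and 5 of the 6 lectins and disulfide isomerases had lower means in KO heart, with medians of −0.32 and −0.19, and these counts were 8 or 9 and 5 in all 15 settings. Beside them, 45.0% of all genes tested had lower means in KO heart. Of 34 other chaperones and disulfide isomerases tested, 20 were lower, with a median of −0.02. All 8 genes with an ERSE in the window that were tested had lower means in KO, from −0.43 to −0.09 with a median of −0.32, beside 12 of the 24 other genes with a window. All of the 8 but Syvn1 are among the chaperones, lectins and disulfide isomerases counted above, so this is not a separate observation. Of the 5 genes without a window, Manf, Hyou1 and Atf6 were lower and Fkbp10 and Derl1 higher, with a median of −0.34. In the ATF4 arm 5 of 6 had higher means, with a median of 0.22: Asns 0.50, Trib3 0.31, Atf4 0.23, Ddit3 0.21 and Chac1 0.20. Ppp1r15a was lower at −0.35, and it alone in the arm had no overlap between KO and WT hearts. Over 15 settings 0 to 2 of the 6 were lower, with medians from 0.09 (without WT replicate 2) to 0.34 (without WT replicate 1). The 4 genes with the composite element are Asns, Chac1 and Trib3 of the same arm and Herpud1. All 4 had higher means, with a median of 0.25. Over the settings 0 or 1 of them was lower, with medians from 0.12 (without WT replicate 3) to 0.46 (without WT replicate 1). Of 26 other integrated stress response genes tested, 15 were lower in KO heart, with a median of −0.03. None of these groups held a called gene. The WT hearts differed in depth, with 33906290, 20381284 and 18392292 estimated reads, against 31784742 to 35862932 in KO hearts, and cytosolic heat shock genes summed to 14.98 to 15.23 in WT and 14.73 to 14.99 in KO hearts.

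**Figure D4:**
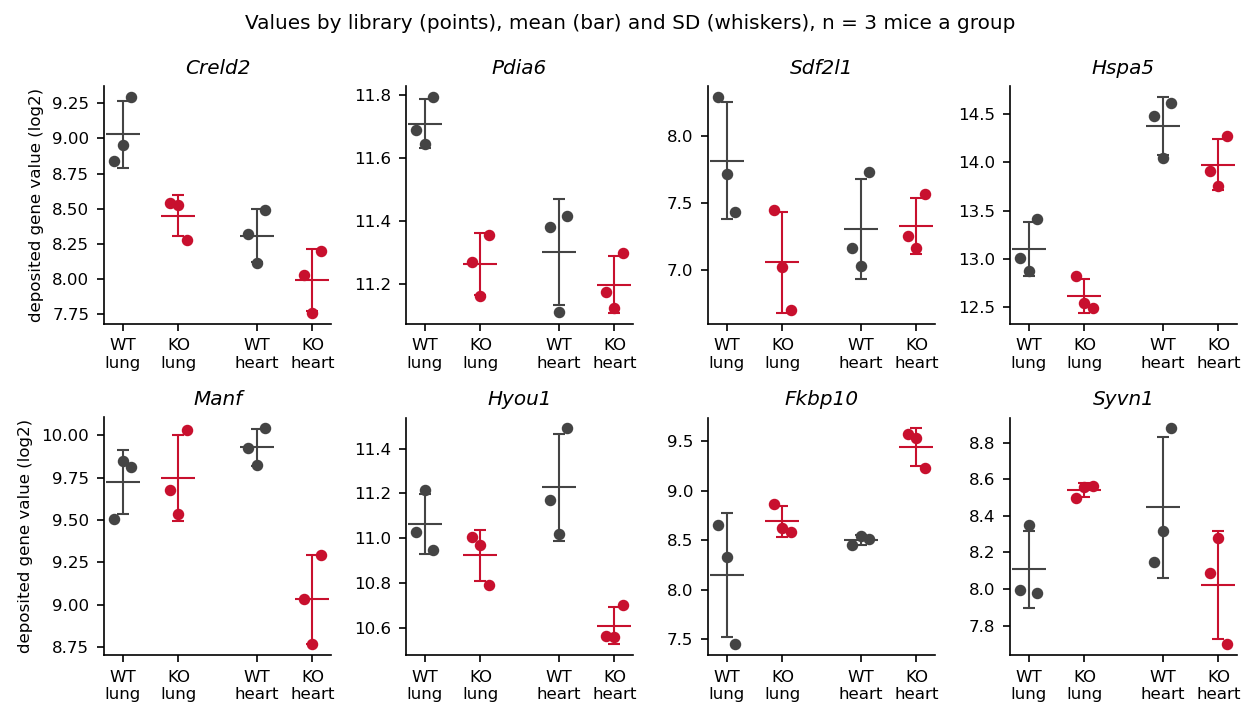
Deposited log2 gene values of 8 genes by library, with the mean (bar) and SD (whiskers) of 3 mice in each group; axes do not start at 0. KO lungs lie below WT lungs for Creld2, Pdia6 and Hspa5, KO hearts lie below WT hearts for Manf and Hyou1 and above them for Fkbp10, and KO lungs lie above WT lungs for Syvn1.

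Whether the genotype differences themselves differed between tissues was tested as an interaction over 17666 genes. None of the 38 passed an adjusted p of 0.05, which 0.00566% of all genes (1 gene) did, and 7 were under an unadjusted p of 0.05, against 7.88% of all genes. Manf led, with a lung difference that exceeded the heart difference by 0.92 ± 0.24 (limma, adjusted p = 0.502). Syvn1 (0.86), Ppp1r15a (0.74), Pdia3 (0.55), Hyou1 (0.48) and Atf6 (0.46) had the same sign, and Sec61b had the opposite sign at −0.90 ± 0.34, being lower in KO lung by −0.46 and higher in KO heart by 0.45. Of the 37 genes tested in both tissues, 14 were lower in both, 5 higher in both, 9 lower in lung alone and 9 lower in heart alone.

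In the remaining genes the WT and KO libraries overlapped in both tissues, and no test gave an unadjusted p under 0.05 (limma). Edem1 differed by 0.04 in lung and −0.40 in heart, Sel1l by 0.10 and −0.22, Herpud1 by 0.38 and 0.14, Derl1 by −0.22 and 0.17, and Derl2 by −0.27 and 0.13. Ern1 differed by 0.09 and −0.04, Eif2ak3 by −0.19 and 0.08, Ssr1 by 0.01 and −0.04, Dnajb11 by −0.12 and −0.05, and Dnajc10 by 0.02 and 0.17. Derl3 differed by 0.20 in the lung at a level of about 4. None of these was called.

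IRE1 acts on Xbp1 mRNA by removing 26 nucleotides, which shifts the reading frame and yields the active transcription factor. The annotation of GRCm39 holds both forms, so the transcript table gives an estimate of each. The unspliced form (2134 nucleotides) has 5 exons, and the segment that only the spliced form lacks lies within exon 4, at chr11:5474278-5474303 on the forward strand. Its removal leaves a remainder of 2 when the length is divided by 3. The sequence is shown from chr11:5474261 to 5474320, with the removed segment in capitals, followed by the joined form. Because of repeated letters at its ends, 7 placements of the segment leave the same joined sequence.

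Xbp1 unspliced: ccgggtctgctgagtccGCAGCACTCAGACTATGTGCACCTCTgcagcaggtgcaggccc
Xbp1 spliced: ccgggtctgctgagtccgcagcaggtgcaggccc

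The spliced form took 6.80%, 22.5% and 11.8% of the Xbp1 estimated counts in WT lungs and 13.7%, 15.8% and 13.9% in KO lungs. WT lungs spanned the KO lungs on both sides, and the means of 13.7 ± 8.04% and 14.5 ± 1.14% (SD, n = 3) differed by 0.76 percentage points (exact two-sided permutation test, p = 0.80). In hearts the shares were 16.6%, 24.5% and 19.8% in WT and 10.1%, 11.2% and 14.8% in KO. All KO hearts were below all WT hearts, at means of 12.1 ± 2.47% and 20.3 ± 3.99%, a difference of −8.25 points (exact two-sided permutation test, p = 0.10, the smallest that 3 mice against 3 allow). Within mice the share was lower in lung than in heart in 4 of 6 (all 3 WT mice and 1 of the 3 KO mice), by 2.09 points on average over the 6 (exact two-sided sign-flip test over 6 mice, p = 0.438, smallest possible 0.0312). The spliced transcript rested on 169 to 622 estimated reads a library. The spliced annotation is also shorter (1116 nucleotides), and reads are assigned to it by Salmon, so these are estimates and not counts of the junction. With counts divided by transcript length, an alternative chosen after the data were seen, the heart shares were 32.9 ± 5.32% in WT and 20.8 ± 3.79% in KO.

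The log2 levels of the forms, scaled as the gene values are, were compared in the same way. Unspliced Xbp1 was at 11.69, 11.27 and 11.68 in WT lungs and 11.20, 10.98 and 11.06 in KO lungs, a difference of −0.47 with no overlap (exact permutation test, p = 0.10), while the spliced form overlapped, at 7.93, 9.53 and 8.83 in WT and 8.61, 8.61 and 8.54 in KO. In hearts the unspliced form was the same in mean (10.43 in both genotypes) and the spliced form was at 8.09, 8.60 and 8.69 in WT and 7.35, 7.34 and 8.001 in KO, a difference of −0.90 with no overlap (exact permutation test, p = 0.10).

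**Figure D5:**
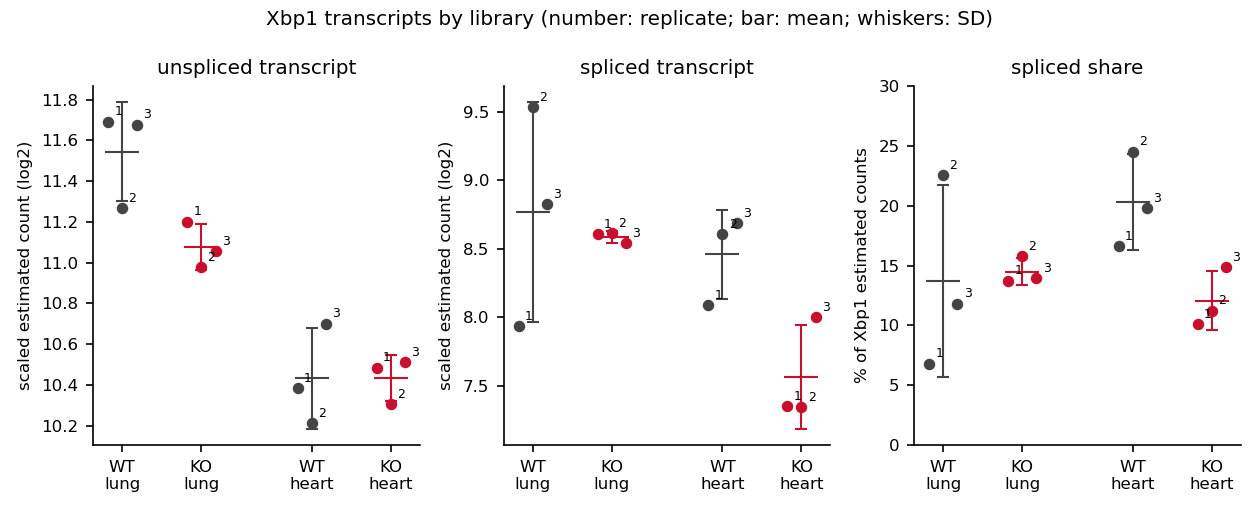
Unspliced and spliced Xbp1 transcript levels (log2 of 1 plus the scaled estimated count) and the spliced share in percent, by library; numbers are replicates, bars the mean and whiskers the SD of 3 mice. WT lungs spread from 6.80% to 22.5%, and KO hearts (10.1% to 14.8%) lie below WT hearts (16.6% to 24.5%).

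Of 154 further genes of the same pathways, 149 were in the table. None of the 146 tested in lung and none of the 145 tested in heart was called between genotypes, and 4 and 10 were under an unadjusted p of 0.05, as were 981 of all 16551 genes in lung and 1141 of all 15303 in heart. Lower means in KO were found for 80 of the 146 in lung (median −0.03) and 78 of the 145 in heart (median −0.02). Of 27 genes of ER entry and glycosylation, 22 had lower means in KO lung, with a median of −0.16, and 11 in KO heart, with a median of 0.02. The other lists in lung had lower means for 18 of 34 chaperones and isomerases, 14 of 25 degradation genes and 8 of 16 collagen maturation genes. They had 7 of 14 sensors and transcription factors, 9 of 27 integrated stress response genes and 2 of 3 KDEL receptors. Between WT lung and WT heart, 55 of 146 were called higher in lung and 27 lower, beside the backgrounds of 29.3% and 20.1%. In the ER entry and glycosylation list 14 of 27 were higher and none lower, from Sec63, a partner of the translocon (0.59), to Tusc3, an oligosaccharyltransferase subunit (1.81).

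At the ends of the other lists, as WT lung minus WT heart, the chaperone list ran from Cdnf, the relative of Manf, at −3.72 to the cyclophilin Ppic at 2.28. Sensors and transcription factors ran from Wfs1, an ER membrane protein, at −3.18 to Tmbim6, a regulator of IRE1, at 1.44. Integrated stress response genes ran from the mitochondrial folate enzyme Aldh1l2 at −3.70 to the cystine transporter Slc7a11 at 5.04, whose WT heart values were at most 1.82, degradation genes from the segregase Vcp at −1.63 to Edem2 at 1.88, and collagen maturation genes from the lysyl hydroxylase Plod1 at −0.93 to the prolyl 3-hydroxylase P3h2 at 1.03. Of 3 KDEL receptors, which return chaperones to the ER, Kdelr2 alone was called in WT (0.62), while in KO Kdelr3 was called at −1.14 and Kdelr2 was at 0.43 without a call. Cdnf lay at 5.38 to 5.70 in WT lungs and 9.15 to 9.43 in WT hearts, while Manf lay at 9.51 to 9.85 and 9.82 to 10.04.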

How the data were processed

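Stranded total RNA libraries were sequenced by the authors, who assigned the reads with Salmon to transcripts of GENCODE vM33 (mm39 build). They deposited a gene table and a transcript table, both on a log2 scale. Transcript values are log2(1 + estimated count). Gene values also carry a constant for each library (−0.63 to 0.80) whose origin is not given in the sources used here. How transcripts were combined into gene values is not given there either. Gene values are not always the scaled sums of their transcripts: for Ppp1r15a, KO lung minus KO heart was 0.89 by gene values and 0.27 by summed transcripts. Genes of at least 3.46, the log2 of 1 + 10, in 3 libraries were tested with limma (3.58.1, R 4.3.3; lmFit, eBayes with trend) on the deposited log2 values, 6 libraries a tissue for genotype and 12 for tissue and interaction. Only mice are replicates. The same mouse gave lung and heart; deviations from group means correlated between its tissues at −0.07 to 0.14. Members, gene lists and tests were chosen with earlier results of these data known. The rule for named genes gave every library's value for the 3 smallest p in each genotype comparison and the 2 widest WT tissue differences of each role. TPM used GENCODE vM39 lengths (57945 of 58449 protein-coding transcripts matched), and near-identical copies were searched with blastn (2.17.0). The fits were tested on simulated data with added changes of 2 log2 units. These are larger than any genotype difference among the 38 genes, so that test does not show whether differences of the size seen would be called. Alternatives were no and stricter filters, a pseudocount of 10, centering, summed transcripts, no trend, limma-voom, all 12 libraries, the block, and leaving out each library.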

Additional observations from a re-analysis of the deposited data

How the results depend on the processing

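The counts of called genes for genotype were 0 in lung under every setting and 0 in heart except with summed transcripts, where 1 gene (Fkbp10) was called. The interaction gave 0 throughout. The tissue counts were 13 to 16 in WT and 16 to 18 in KO with each library left out, and 15 and 15 with centering. With the replicate block, in the paired fit, they were 14 and 17, and it changed no other call than that of Asns in KO. Medians with each library left out were −0.17 to −0.08 in lung and −0.15 to −0.05 in heart. The spliced share of Xbp1 differed between genotypes by −2.70 to 5.17 points in lung, where leaving out WT replicate 1 (−2.70) or 3 (−0.19) turned its sign, by −10.1 to −6.14 in heart, and between tissues by −3.42 to −0.55. Single-gene values were recomputed for genes called in a comparison, or under an unadjusted p of 0.05 between genotypes or for the interaction. Of these 990 values 957 kept their direction and side of the threshold, 32 lost a call and 1 gained one, none changing sign. Calls gained between tissues by other genes and sign changes of values near 0 are not among them. Genotype and interaction results that were never called count as kept when they stayed uncalled. The filters, the trend, the block and leaving out a library of the other genotype do not alter a tissue difference, so its sign could not change there. The filters, the trend and the fit of all 12 libraries do not alter a genotype difference. Nor do the filters, the trend and the block alter an interaction, so these signs were fixed as well. The lost calls were Creld2 and Ern1 in WT and Asns, Ddit3, Dnajc10, Ern1, Fkbp10, Herpud1, Manf, Ppp1r15a and Sel1l in KO. With 3 mice a group, the permutation tests cannot go below 0.10.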
